A study of Mus musculus with 5 samples.

Results

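Hepatocytes of a postnatal day 14 mouse liver (P14) were compared with hepatocytes of an adult control liver, 1 droplet library on each side, over all genes. In each library a barcode was taken as a hepatocyte when it held at least 5000 unique molecular identifiers (UMIs, 1 per captured transcript), drew 10% to 30% of them from mitochondrial genes, and drew at least 1% from Alb, Apoa1 and Ttr together. This gave 2106 hepatocytes among 2907 P14 barcodes of that depth and 925 among 2639 in the adult control, or 3031 of the 5691 hepatocytes that the same rule found in all 5 libraries of the study. All mice were of the C57BL/6J strain and carried no stated transgene. The P14 mice were untreated, and the adult mice were 8 weeks old at the time of surgery. The 3 other libraries came from adults whose livers had been partly removed (partial hepatectomy) 24 h, 48 h or 96 h earlier. They served here as further adult reference points and not as controls, since the animals had been operated on. Liver cells were released by perfusion, freed of dead cells with a kit and captured with the 10x v3 chemistry. The labels give neither the number nor the sex of the animals. One protocol line counts the adult control among the operated samples, whereas its title and source name it a control, and it was treated as one.

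Hepatocytes are the secretory and metabolic cells of the liver. Around birth they still express fetal genes, such as Afp and the imprinted H19 and Igf2, and these are silenced in the weeks after birth. Over the suckling period the cells live on a fat-rich, carbohydrate-poor milk diet. After weaning and puberty they take on the adult programme of lipid synthesis, drug metabolism and, in rodents, a strong difference between the sexes that is set by the pattern of growth hormone secretion.

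Age was not the only difference between the libraries. Xist, the non-coding RNA of the inactive X chromosome in females, stood at 840 CPM (counts scaled to the same total in every library) in P14 hepatocytes, at 0 in the adult control and the 24 h library, at 0.0480 at 48 h and at 0.0744 at 96 h. The Y-linked helicase gene Ddx3y stood at 0 in P14, at 112 CPM in the control, and at 140, 113 and 128 CPM in the operated livers. The P14 hepatocytes thus carried female RNA and those of all 4 adult libraries male RNA, and age and sex cannot be told apart. A code that ends in 2 in the description of the control ends in 1 for P14 and the operated livers. What it stands for is not stated, and any effect of it cannot be told apart from that of being the control, so P14 was also set against the other 3 adult libraries. With 1 library per group no test between groups was possible, no p-value is given, and all intervals are exact 95% intervals that cover counting error only.

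Of 12 hepatocyte markers, Alb, Apoa1 and Ttr were used to choose the cells. The other 9, such as Fga, Fgb and Hnf4a, were all detected in both libraries, with summed levels of 101599 CPM in P14 and 45594 CPM in the adult control. Of these sums, Ahsg alone held 40074 and 4986 CPM. Gene by gene, the 9 had a median log2 ratio, P14 over adult control, of -0.39. Of the 9, 3 were at least 2-fold higher in P14, a larger share than the 7.73% of all genes. The P14 cells were deeper, with a median of 38922.5 UMIs per cell against 18527, and had a lower median mitochondrial share, 20.6% against 25.3%. Droplets without a cell held a median of 460 UMIs in P14 and 1330 in the adult control, equal to 1.18% and 7.18% of the median hepatocyte, so free RNA was the larger share in the adult control. Transcripts of other cells were also more frequent there. The 9 erythroid markers summed to 125 CPM in P14 and 742 CPM in the adult control (Hbb-bs, uncertain because of its copy Hbb-bt, 52.2 and 426 CPM), the 11 T or NK cell markers to 3.76 and 31.3 CPM, and the 10 B cell markers to 11.9 and 60.4 CPM. The 12 macrophage markers summed to 5.95 and 14.0 CPM, the 12 endothelial markers to 15.6 and 29.7 CPM, and the 11 cholangiocyte markers to 922 and 1480 CPM, nearly all of it from Clu, which hepatocytes also express, while Krt19 stood at 0.124 and 0 CPM. The neutrophil markers went the other way, 32.3 against 11.5 CPM. The stellate cell list stood at 47.5 against 6.46 CPM, of which Reln made up 45.6 and 2.63 CPM, while Dcn, a defining stellate gene, stood at 0.248 and 1.58 CPM. Only 2 hepatocyte barcodes occurred in both libraries.

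Counts were summed over the hepatocytes of each library and divided by their total without mitochondrial genes, 64576753 UMIs in P14 and 13316829 in the adult control. Ratios are log2((CPM + 1)/(CPM + 1)), P14 over adult control, for the 8745 genes that reached 5 CPM on either side, without mitochondrial genes, major urinary protein (Mup) genes and X- or Y-linked genes. Of these genes, 256 (2.93%) were at least 4-fold higher in P14 and 312 (3.57%) at least 4-fold lower. Of these 568 genes, 559 stayed so with free RNA taken off and 544 without the barcodes that held at least 3 markers of another cell class. At 2-fold the counts were 676 (7.73%) and 1202 (13.7%). These shares of all genes are the reference for the list counts below. The median ratio over all genes was -0.26. The most abundant genes filled a larger share of the P14 counts: the 20 most abundant genes of each library held 34.2% of the UMIs in P14 and 22.6% in the adult control. The 10 genes with the largest gain held 28.5% and 8.14%. They were chosen for that gain, and they include H19 and the 3 genes of the cell rule, Alb, Apoa1 and Ttr. With trimmed-mean (TMM) scaling the median was 0.02 and the split turned to 320 higher and 246 lower, so that 56.5% in place of 45.1% of the 4-fold calls were higher in P14. Among the 4-fold differences, 188 of the higher genes (2.15% of all genes) also lay above all 4 adult libraries, and 296 of the lower genes (3.38%) lay below all 4. Without a ratio limit, P14 lay above all 4 adult libraries for 17.2% and below all 4 for 45.5% of genes. At the 4-fold limit, Acot4 at 2.003 was the last gene inside on the higher side, with Acadl just outside at 1.995, and Selenow at -2.003 was the last on the lower side, with Zc2hc1c outside at -1.9995.

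**Figure D1:**
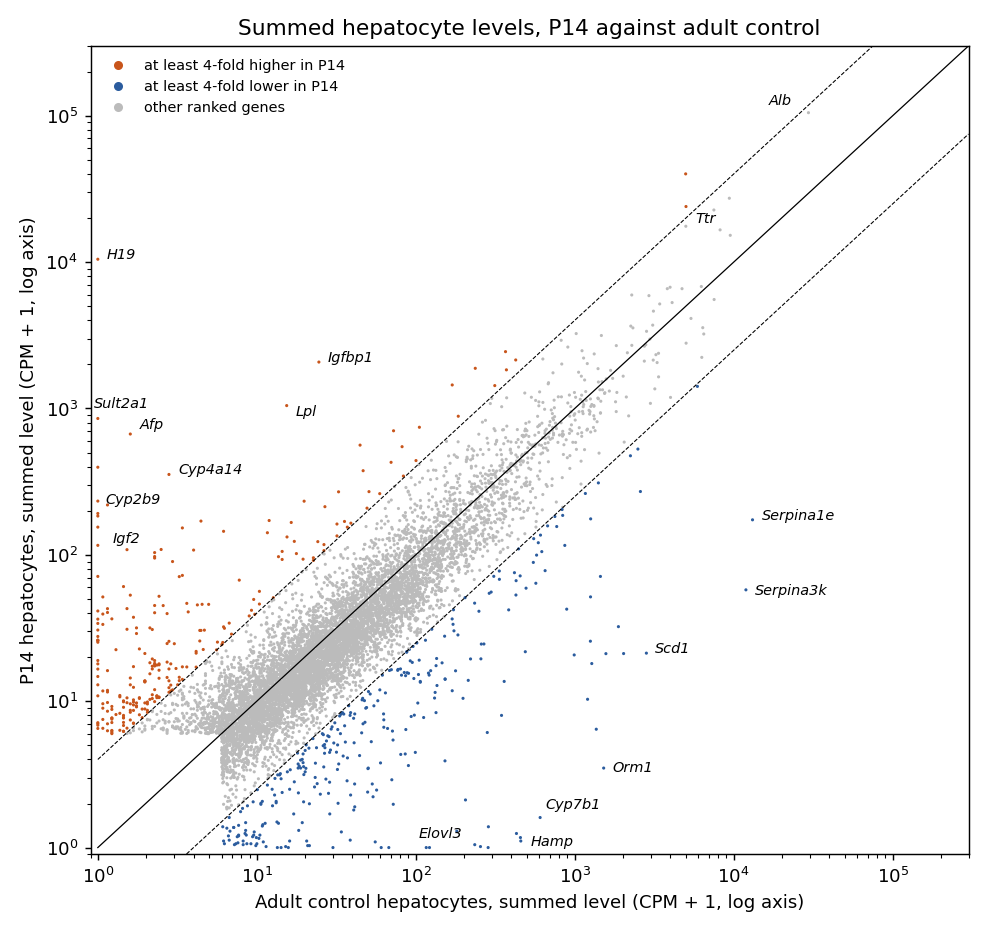
Each point is 1 of the 8745 genes, with its summed level in adult control hepatocytes on the x axis and in P14 hepatocytes on the y axis (CPM + 1, log axes); the solid line marks equal levels and the dashed lines a 4-fold difference. H19 and Sult2a1 sit on the left edge at 0 CPM in the adult control, and Serpina1e and Serpina3k lie far below the line at over 10000 CPM in the adult control.

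Genes of the fetal and neonatal liver made up 4 of the 15 largest ratios, among them the largest, that of H19. Their list had 20 genes, of which 8 were ranked, 10 lay below 5 CPM in both libraries and 2 were X-linked. All 8 ranked genes were higher in P14 and above all 4 adult libraries, 7 of them at least 4-fold, with a median of 5.70 against -0.26 over all genes, or 7.61 with the genes at 0 set to a floor of 3 counts per library. All 8 lay below 5 CPM in the adult control and passed the filter on level through P14 alone, so they had to be higher there, and these values describe the 8 genes and not the list. Without that filter the median was 1.61 over 15 genes. The 10 unranked autosomal genes were too low in both libraries to be ranked, so the difference was not seen over the whole fetal list. Among them were the fetal marker Dlk1 at 0 CPM in both libraries and the stem-cell RNA-binding gene Lin28b at 0.0929 and 0 CPM.

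H19, an imprinted non-coding RNA gene (chr7:142575529-142578143 in GRCm38), stood at 10465 CPM in P14 from 675796 UMIs, and at 0, 0, 0 and 0.0744 CPM in the adult control and the livers 24 h, 48 h and 96 h after surgery. Its level was at least 46454-fold higher in P14, taking 3 counts as the limit of the adult control. Its neighbour Igf2, a fetal growth factor, stood at 154 CPM in P14 and at 0, 0, 0.0480 and 0 CPM in the same 4 adult libraries. By the same measure it was at least 554.8-fold higher than the control. Part of the Igf2 transcript end is shared with another gene model, which makes its count uncertain. Cdkn1c, an imprinted inhibitor of cell division that lies in the same imprinted region of chromosome 7, stood at 107 CPM against 0.526, 0.307, 1.63 and 2.90 CPM. All 3 genes were thus near 0 in every adult library, whether or not the liver had been operated on.

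Afp, the fetal relative of albumin and its neighbour on chromosome 5, stood at 668 CPM in P14 (43144 UMIs) and at 0.601 CPM in the adult control (8 UMIs), where an Afp UMI was found in 0.108% of hepatocytes and 0.818% of T, NK or B cell (lymphocyte) barcodes, each thinned to 5000 UMIs, so no fold is given. The libraries after hepatectomy were slightly above the control, at 3.23, 4.46 and 3.57 CPM, and far below P14. Peg3, an imprinted zinc finger gene, stood at 169 CPM against 3.45 to 4.03 CPM in the 4 adult libraries. Igf2bp3, an oncofetal RNA-binding protein gene, stood at 41.9 CPM against 0.150 to 0.720 CPM. Spink1, a trypsin inhibitor gene, stood at 41.9 CPM against 0.526 CPM in the control and 16.3 CPM at 96 h, and was the only one of the 8 besides Igf2bp2 (5.51 against 2.83 CPM) for which an adult library came within 4-fold. Of the X-linked members, Gpc3, an oncofetal cell-surface proteoglycan gene, stood at 83.3 CPM against 0 in the control, and Bex4 at 21.7 CPM against 0.

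**Figure D2:**
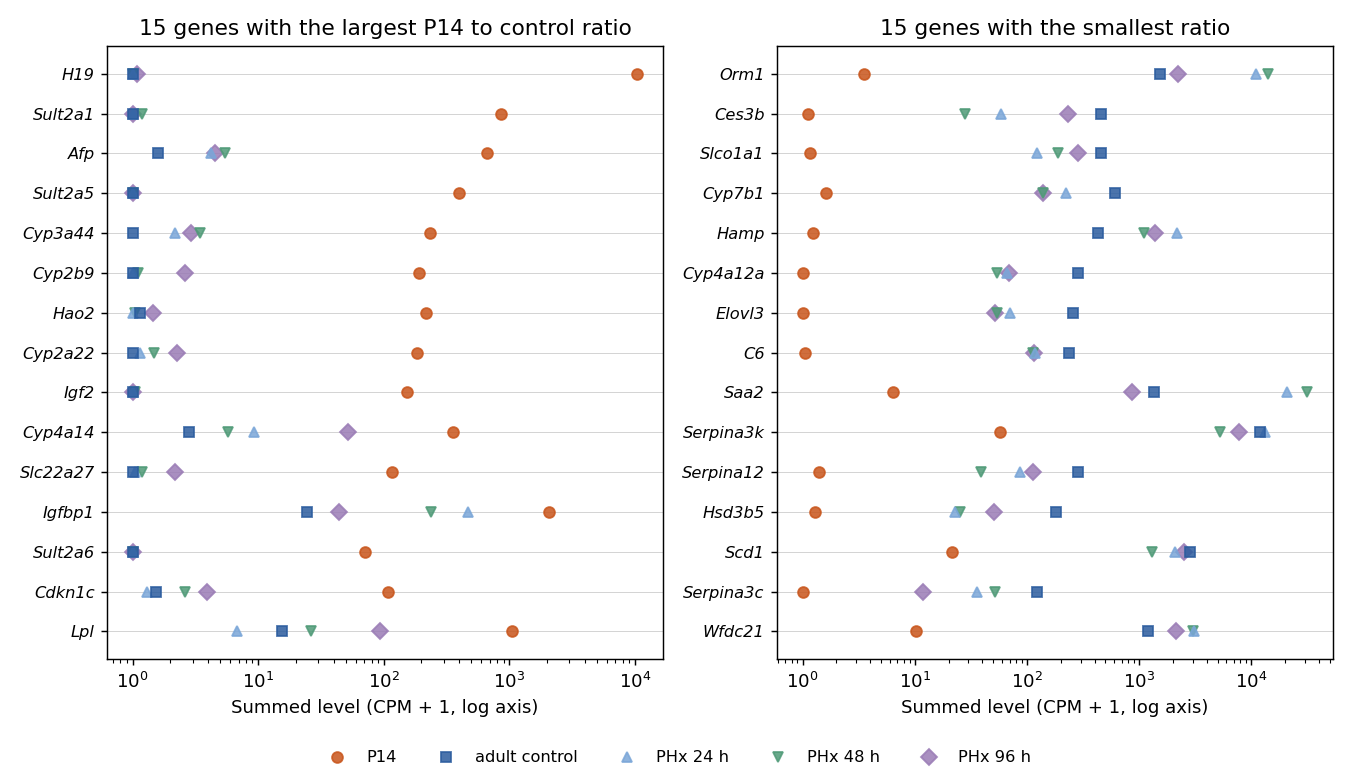
Summed levels (CPM + 1, log axis) in the 5 libraries for the 15 genes with the largest and the 15 with the smallest P14 to adult control ratio. In each of the 15 higher genes the P14 point lies above all 4 adult points, and in each of the 15 lower genes below all 4; among the higher genes Igfbp1 comes nearest at 24 h, at 468 CPM.

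Most genes known for a higher level in the female liver were higher in P14. Of the 22 genes, 16 were ranked and all 16 were higher in P14. Of them, 15 were at least 4-fold higher, against 2.93% of all genes, and 15 lay above all 4 adult libraries, against 17.2%. The list median was 5.01 (6.84 with the floor). Of these 16 genes, 14 lay below 5 CPM in the adult control and were ranked only through their level in P14, and without the filter the median was 4.70 over 21 genes. They include steroid and drug sulfotransferases, cytochrome P450 enzymes of the 2b, 2c and 3a families, and flavin monooxygenases. Sult2a1, a bile acid and steroid sulfotransferase gene, stood at 853 CPM in P14 and at 0, 0, 0.192 and 0 CPM in the adult libraries, at least 3080.7-fold higher than the control. Cyp3a44 stood at 232 CPM against 0, and Hao2, a peroxisomal hydroxy acid oxidase gene, at 218 CPM against 0.150 CPM (2 UMIs), a ratio of 1453 (402 to 12000). The list did not behave as one: Cyp3a41a stood at 0.0929 and 0 CPM, Sult3a1 at 0 and 0.0751 CPM and A1bg at 0.465 and 0.150 CPM, so these 3 genes were near 0 in the P14 library as well. Further members of the sulfotransferase cluster on chromosome 7 that were on no list, Sult2a5 at 396 CPM and Sult2a6 at 70.2 CPM, were also at 0 in the control; Sult2a5 and Sult2a2 share part of their transcript ends with other genes and their counts are uncertain.

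Cyp2b9 and Cyp2b13 are near-copies in tandem on chromosome 7. Cyp2b9 stood at 191 CPM in P14 and Cyp2b13 at 29.6 CPM, and both stood at 0 in the adult control. Their RefSeq promoters (GRCm38.p6) are shown because 2 genes with almost the same upstream sequence were both detected in P14 only among the unoperated libraries. Over 300 aligned bases, 250 before to 50 after the annotated start, 298 were the same. The 250 bases before the start follow, on the plus strand at chr7:26173159-26173408 for Cyp2b9 and chr7:26061245-26061494 for Cyp2b13, with the 2 differing bases in capitals.
Cyp2b9: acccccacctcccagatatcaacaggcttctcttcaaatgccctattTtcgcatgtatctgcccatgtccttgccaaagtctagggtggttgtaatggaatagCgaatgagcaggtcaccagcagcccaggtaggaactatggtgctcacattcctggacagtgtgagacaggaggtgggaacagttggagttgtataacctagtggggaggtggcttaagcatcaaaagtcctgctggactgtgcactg
Cyp2b13: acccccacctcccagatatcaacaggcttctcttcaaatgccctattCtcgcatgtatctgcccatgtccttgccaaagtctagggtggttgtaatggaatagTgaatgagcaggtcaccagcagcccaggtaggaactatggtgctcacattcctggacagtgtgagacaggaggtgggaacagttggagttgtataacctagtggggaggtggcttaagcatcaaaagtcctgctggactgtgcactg

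Genes known for a higher level in the male liver mirrored this. All 16 were ranked and all 16 were at least 4-fold lower in P14, against 3.57% of all genes. Of them, 13 lay below all 4 adult libraries, against 45.5% of all genes. The list median was -5.26 (-7.04 with the floor). Of the 16 genes, 11 lay below 5 CPM in P14. They were ranked only through the adult control, so they had to be lower in P14. Slco1a1, an organic anion uptake transporter gene, stood at 0.170 CPM in P14 against 454, 122, 188 and 283 CPM in the 4 adult libraries, 2668-fold lower than the control (1490 to 5347). Cyp7b1, an oxysterol hydroxylase gene, stood at 0.604 CPM against 605, 220, 139 and 138 CPM. Cyp4a12a, a fatty acid hydroxylase gene, stood at 0 against 284 CPM, at least 4974.5-fold lower, although it shares 30% of its transcript end with its copy Cyp4a12b. Hsd3b5, a steroid dehydrogenase gene, stood at 0.294 against 180 CPM. Moxd1, at 0 CPM in P14 and 115 CPM in the control, was also at 0 at 96 h and was 1 of the 3 members not below all adult libraries. The 21 Mup genes, which encode urinary pheromone carriers and are highest in adult males, were left out of the ranking and gave a sum of 3.19 CPM in P14 (206 UMIs) against 91001 CPM in the control, or 9.10% of its UMIs, and 40791, 15351 and 13399 CPM in the operated livers by time. Members of the sex-biased lists made up 15 of the 256 genes at least 4-fold higher and 16 of the 312 at least 4-fold lower.

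Many plasma protein genes were higher in P14, some were level and a few were far lower. The list of serum transport proteins and apolipoproteins had a median of 1.08 over 26 ranked genes. Of these, 15 were at least 2-fold and 4 at least 4-fold higher in P14, against 7.73% and 2.93% of all genes. Above all 4 adult libraries lay 18 of them, against 17.2% of all genes. Alb, Apoa1 and Ttr, which entered the rule that defined the cells, are members. Without them the median was 1.02 over 23 genes, with 12 at least 2-fold and 3 at least 4-fold higher. The full list's median was below 1 in 3 of 19 alternatives, the lowest 0.93 where hepatocytes needed at least 3% of UMIs from Alb, Apoa1 and Ttr. Ahsg, which encodes fetuin-A, a calcium-binding carrier that is abundant in young serum, stood at 40074 CPM against 4986, 6417, 7060 and 7279 CPM in the adult libraries, 8.04-fold higher than the control (7.98 to 8.10). Alb, the albumin gene, stood at 104975 CPM against 29534 CPM, 3.55-fold higher, and at 58855 CPM at 96 h. Ttr, the thyroxine and retinol carrier transthyretin, stood at 23981 against 5010 CPM, and Apoa1, the main protein of high-density lipoprotein, at 17580 against 4999 CPM. The levels of Alb, Apoa1 and Ttr are given as a description. Trf, the transferrin gene from the iron list, stood at 27325 against 9387 CPM and Apoe at 22705 against 7505 CPM, neither of which the rule used. Apob, the core protein of secreted triglyceride-rich particles, was level, at 2979 and 2971 CPM. Apon, at 157 against 674 CPM, was the 1 member at least 4-fold lower, and Apoc3, an inhibitor of lipolysis, stood at 1644 against 3368 CPM.

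The serpins, a family of protease inhibitors and hormone carriers, held both extremes. Of 21 ranked serpin genes, 3 were at least 4-fold higher and 5 at least 4-fold lower, with a median of 0.57. Serpina3k stood at 56.6 CPM in P14 against 11936, 13159, 5207 and 7797 CPM in the adult libraries, 211-fold lower than the control (204 to 218). Serpina1e, 1 of several mouse copies of the alpha-1-antitrypsin gene, stood at 173 CPM against 13135, 6051, 9797 and 10977 CPM, while its copies Serpina1c (5552 and 7532 CPM) and Serpina1d (2699 and 2286 CPM) were within 2-fold of the control. Serpina3c stood at 0 against 121 CPM, and Serpina12, which encodes vaspin, at 0.387 against 285 CPM. On the other side, Serpina6, the glucocorticoid-binding globulin gene, stood at 428 CPM against 68.9 CPM, and Serpina3m at 561 against 43.6 CPM. The annotated spans of Serpina3k and Serpina3m overlap on chromosome 12, so reads between these paralogs may have been split, and both values are uncertain. Together the 25 serpin genes summed to 28078 CPM in P14 and 46103 CPM in the control.

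Over 39 ranked genes of coagulation and complement the median was 0.31, with 0 genes at least 4-fold higher and 4 at least 4-fold lower. The 4 lower genes encode subunits of the membrane attack complex: C6 stood at 0.0465 CPM (3 UMIs) against 234, 118, 111 and 115 CPM in the adult libraries, C9 at 70.2 against 1450 CPM, C8b at 74.5 against 417 CPM and C8a at 155 against 770 CPM. C8g, which encodes another subunit of the complex, was level at 675 against 648 CPM. Of other components, C3, the central component, stood at 5962 against 2283 CPM, and Cfb, a factor of the alternative pathway, at 287 against 85.8 CPM. Among clotting genes, F2, the prothrombin gene, stood at 2012 against 828 CPM and F10 at 805 against 262 CPM.

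Acute phase genes, which the liver induces in inflammation, had a median of -0.04 over 23 genes, with 6 at least 4-fold lower in P14. Orm1 stood at 2.49 CPM in P14 and 1520 CPM in the control, and reached 10889 CPM and 14114 CPM at 24 h and 48 h after hepatectomy. Saa1 stood at 20.2 against 2029 CPM and Saa2 at 5.44 against 1365 CPM. Inflammatory genes without such differences were Hp, the haptoglobin gene, at 4624 against 3126 CPM, and Itih4 at 2210 against 1136 CPM. Socs3, the feedback inhibitor that is induced by the same cytokine signals, stood at 1.91 CPM in P14 against 69.7, 40.4, 22.5 and 12.9 CPM in the adult libraries. The sign of this list's median turned with TMM scaling (0.25), as did those of the bile acid (0.19), gluconeogenesis (0.16) and ribosomal protein (0.24) lists, which were all near 0.

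In iron handling, Hamp, which encodes the hormone hepcidin that blocks iron export, stood at 0.248 CPM in P14 (16 UMIs) against 429, 2188, 1114 and 1371 CPM in the adult libraries. Tfrc, the transferrin receptor gene for iron uptake, was the other extreme, at 165 CPM against 15.5, 54.0, 28.2 and 26.0 CPM, 10.7-fold higher (9.32 to 12.3). Fth1 and Ftl1, the subunits of the iron store ferritin, stood at 3564 against 6387 CPM and at 2233 against 6298 CPM, the latter uncertain because of copies of the gene. Slc40a1, the iron exporter gene, stood at 126 against 61.0 CPM. The remaining members lay within 4-fold, and the list of 20 genes had a median of -0.44.

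**Figure D3:**
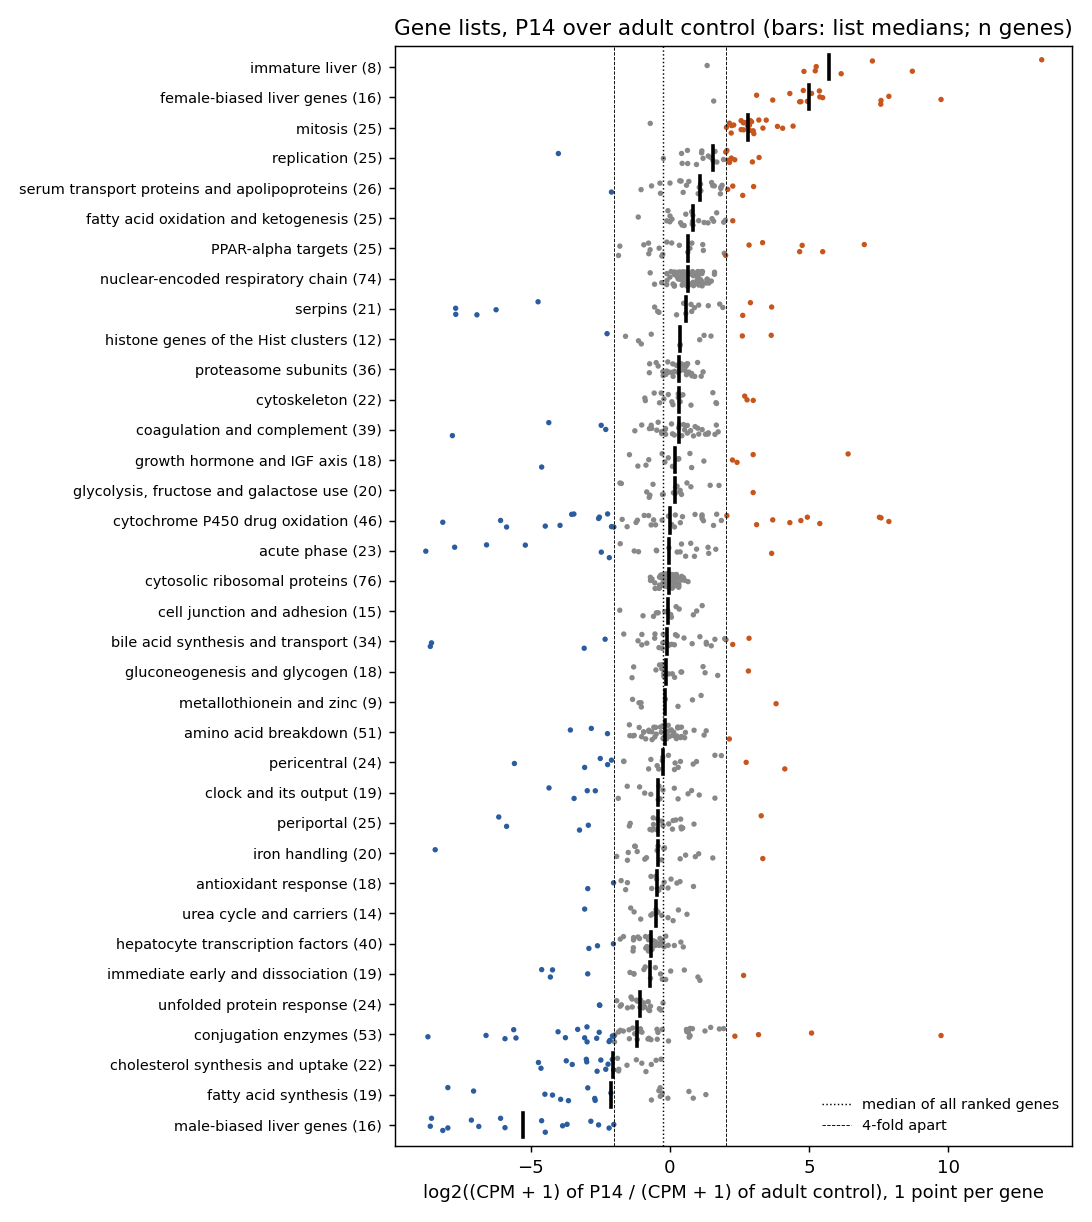
Each point is the log2 ratio of 1 ranked gene, P14 over adult control, for 36 gene lists ordered by their medians (bars); orange and blue points are at least 4-fold higher and lower, the dotted line is the median of all genes at -0.26 and the dashed lines mark 4-fold. Fetal and female-biased genes lie at the top and male-biased, fatty acid synthesis and cholesterol genes at the bottom, and P450 enzymes and serpins have points at both ends.

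Cholesterol genes were lower in P14 throughout. The 22 genes of cholesterol synthesis and uptake had a median of -2.04, 18 were at least 2-fold and 12 at least 4-fold lower, and all 22 lay below all 4 adult libraries, which held for 45.5% of all genes. Idi1, an isomerase that forms isoprenoid building blocks, stood at 12.6 CPM against 359, 627, 341 and 413 CPM in the adult libraries, 28.4-fold lower than the control (26.3 to 30.6), with part of its transcript end shared by another gene. An Idi1 UMI was found in 4.65% of P14 hepatocytes and 11.1% of lymphocyte barcodes of that library. Sqle, the squalene epoxidase gene, stood at 2.63 against 88.9 CPM, Msmo1, a sterol oxidase gene, at 18.5 against 256 CPM, and Cyp51, the lanosterol demethylase gene, at 18.4 against 220 CPM. Hmgcs1, at the entry of the pathway, stood at 154 against 569 CPM. Srebf2, the transcription factor of these genes, was nearly level at 26.4 against 33.2 CPM.

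Of the 22 cholesterol genes, 14 had a promoter in the RefSeq table (GRCm38.p6, 250 bases before to 50 after the start). The letters CCAAT, on either strand, occurred in 14 of these 14 windows, against 41.1% of the 27025 genes with a promoter in the table. CCAAT is the site name of the factor NF-Y, but a match of 5 letters is a description and no binding site. The letters TCACNCCAC, 1 form of the sterol response element, occurred in 1 of the 14 windows and in 1.44% of genes, and TATAAA in 0 of 14 and in 15.7% of genes. CCAAT was also frequent in other lists, whichever their direction: 20 of 22 mitosis genes, higher in P14, and 18 of 21 unfolded protein response genes, with a median below 0, held it, while 3 of 20 acute phase genes did. The 250 bases before the start of 3 genes with large differences are printed to show where the letters lie, with each CCAAT, or ATTGG where it reads on the other strand, in capitals. Idi1 (chr13:8885356-8885605, plus strand) has 2 matches, beginning 45 and 14 bases before the start, Cyp51 (chr5:4104698-4104947, minus strand) has 1 at 29 bases, and Msmo1 (chr8:64733579-64733828, minus strand) has 3 at 160, 96 and 55 bases.
Idi1: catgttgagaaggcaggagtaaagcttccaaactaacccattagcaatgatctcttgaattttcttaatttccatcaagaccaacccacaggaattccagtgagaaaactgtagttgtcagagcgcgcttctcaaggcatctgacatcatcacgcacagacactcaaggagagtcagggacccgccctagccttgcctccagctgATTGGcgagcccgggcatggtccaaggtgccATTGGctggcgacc
Cyp51: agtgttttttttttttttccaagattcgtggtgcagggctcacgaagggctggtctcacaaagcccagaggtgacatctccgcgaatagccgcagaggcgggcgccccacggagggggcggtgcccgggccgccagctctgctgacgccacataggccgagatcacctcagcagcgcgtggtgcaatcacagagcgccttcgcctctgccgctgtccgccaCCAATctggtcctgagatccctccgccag
Msmo1: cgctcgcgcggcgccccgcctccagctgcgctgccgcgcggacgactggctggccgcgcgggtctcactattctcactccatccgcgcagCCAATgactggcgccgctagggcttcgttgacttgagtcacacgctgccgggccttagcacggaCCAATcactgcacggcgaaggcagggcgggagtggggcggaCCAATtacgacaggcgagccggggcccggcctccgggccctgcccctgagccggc

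Fatty acid synthesis was lower as well, with a median of -2.12 over 19 genes and 10 at least 4-fold lower, against 3.57% of all genes. Without the filter on level the median was -0.71 over 21 genes, short of the limit of -1, and it was past -1 in the other 18 alternatives. Scd1, which desaturates newly made fatty acids, stood at 20.3 CPM against 2822, 2091, 1301 and 2502 CPM in the adult libraries, 139-fold lower than the control (132 to 147). Elovl3, an elongase gene that is also on the male-biased list, gave 1 UMI in P14 (0.0155 CPM) against 254 CPM. Thrsp, a lipogenic nuclear protein gene that responds to carbohydrate and thyroid hormone, stood at 20.8 against 488 CPM, Acly, which makes cytosolic acetyl-CoA, at 65.6 against 427 CPM, and Fasn, the fatty acid synthase gene, at 27.4 against 183 CPM. Acacb, the carboxylase isoform that restrains mitochondrial fat uptake, stood at 1.72 against 40.2 CPM. The desaturase gene of polyunsaturated fats, Fads2, was higher in P14, at 75 against 30.04 CPM, and Srebf1, the lipogenic transcription factor gene, stood at 126 against 77.9 CPM. Srebf1 thus did not share the direction of the list.

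In fatty acid oxidation and ketogenesis the median was 0.81 over 25 genes, short of the limit of 1 for a list. It passed 1 in 2 of 19 alternatives, with 1.10 under TMM scaling. Of the 25 genes, 22 were higher in P14, against 35.5% of all genes, and 20 lay above all 4 adult libraries, against 17.2%. Only 1 was at least 4-fold and 9 at least 2-fold higher. Acat1, which acts in ketone body metabolism, stood at 884 CPM against 184, 113, 167 and 296 CPM, Acadl, a long-chain acyl-CoA dehydrogenase gene, at 292 against 72.4 CPM, and Bdh1, the ketone body dehydrogenase gene, at 595 against 155 CPM. Cpt1a, the gate for mitochondrial fat entry, differed less, at 305 against 233 CPM. Nuclear genes of the respiratory chain had a median of 0.63 over 74 genes, also short of 1, with 68 higher against the same 35.5%, 19 of them at least 2-fold and 0 at least 4-fold.

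Targets of the lipid sensor PPAR-alpha were divided, with a median of 0.64 over 25 genes that turned to -0.11 when only genes of at least 50 CPM were kept. In P14 15 were higher and 10 lower. At 4-fold the counts were 7 and 0, against 2.93% and 3.57% of all genes, and at 2-fold 10 and 2, against 7.73% and 13.7%. In the control 6 lay below 5 CPM and were ranked only through P14. The whole list summed to 7705 CPM in P14 and 9750 CPM in the control. The members named here were all higher in P14. Cyp4a14, a fatty acid hydroxylase gene, stood at 353 CPM in P14 against 1.80, 8.30, 4.70 and 50.5 CPM in the adult libraries, with Cyp4a10 at 123 against 16.2 CPM and Cyp4a31 at 107 against 3.00 CPM. Pdk4, the kinase that spares glucose, stood at 10.6 against 0.150 CPM. Fgf21, a fasting hormone gene, lay below the limit of 5 CPM, at 4.41 against 0 CPM. Ppara itself stood at 151 against 96.3 CPM. Lpl, on no list here, encodes lipoprotein lipase, an enzyme made by the newborn but not the adult mouse liver. Lpl stood at 1046 CPM against 14.4, 5.79, 25.6 and 92.5 CPM, 72.5-fold higher than the control (63.0 to 84.0). The size of this difference depended on the cells kept: its log2 ratio of 6.09 was 3.93 with cells of 10% to 20% mitochondrial UMIs (87 in the control) and 8.70 with cells of at least 3% Alb, Apoa1 and Ttr (410 in the control).

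In carbohydrate metabolism few genes passed 4-fold. G6pc, the enzyme that releases free glucose, stood at 743 CPM against 104, 125, 177 and 131 CPM in the adult libraries, 7.12-fold higher than the control (6.75 to 7.52), and was the 1 such member of 18 gluconeogenesis and glycogen genes. Pck1, the other gluconeogenic control point, was level at 2663 against 2743 CPM. Galk1, the first enzyme for galactose, a sugar of milk lactose, stood at 212 against 25.8 CPM, 8.22-fold higher (7.38 to 9.17), although in the control a Galk1 UMI was found in 9.95% of hepatocytes and 12.3% of lymphocyte barcodes, and was the 1 such member of 20 genes of glycolysis and sugar use. Gcgr, the glucagon receptor gene, stood at 65.1 against 169 CPM.

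Nitrogen metabolism was mostly near the adult level. The urea cycle list had a median of -0.48 over 14 genes, of which 4 were at least 2-fold lower in P14, against 13.7% of all genes. Cps1, its entry enzyme, stood at 2382 against 3366 CPM, Ass1 at 1821 against 1680 CPM and Arg1 at 1032 against 1262 CPM. Oat, an ornithine transaminase gene of the pericentral zone, was the 1 member at least 4-fold lower, at 58.2 CPM against 493, 1840, 740 and 495 CPM. An Oat UMI was found in 12.8% of P14 hepatocytes and 14.1% of lymphocyte barcodes, and in 44.3% and 45.0% in the control. By this measure neither level stood clear of background. Of 51 genes of amino acid breakdown, 1 was at least 4-fold higher and 3 at least 4-fold lower. Prodh2, a hydroxyproline dehydrogenase gene, stood at 440 against 99.4 CPM, while its relative Prodh, the proline dehydrogenase gene, stood at 6.86 against 92.6 CPM. Tdo2, which opens tryptophan breakdown, stood at 527 against 2496 CPM, close to the 540 CPM of the 48 h library, and Acmsd, at a later branch of the same pathway, at 3.48 against 30.7 CPM.

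Bile acid genes had a median of -0.09 over 34 genes, with 3 at least 4-fold higher and 4 lower. Cyp7a1, the rate-limiting enzyme of the classical pathway, stood at 70.2 CPM in P14 and at 22.2, 39.7, 197 and 171 CPM in the adult libraries, so P14 lay within the adult range. Cyp7b1 and Slco1a1, given above with the male-biased genes, were the lowest members. Cyp39a1, an oxysterol hydroxylase gene, stood at 92.4 against 18.5 CPM. Baat, which joins bile acids to taurine or glycine, stood at 45.8 against 234 CPM, and Abcc3, an export pump gene, at 6.46 against 62.0 CPM. The sterol exporters Abcg5 and Abcg8 stood at 101 against 25.1 CPM and at 117 against 46.6 CPM.

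Drug-metabolising genes differed widely but not in 1 direction. Of 46 ranked P450 and related genes, 10 were at least 4-fold higher and 12 at least 4-fold lower, and the median was 0.01. Of the 10 higher genes, 7 were also on the female-biased list, among them Cyp2c69 at 94.1 against 1.28 CPM, uncertain because part of its transcript end is shared. Cyp2a22, on no sex-biased list here, stood at 183 CPM against 0, 0.154, 0.480 and 1.26 CPM. On the lower side were Cyp2f2, a periportal enzyme gene, at 31.3 against 1882 CPM, Cyp2c54 at 10.5 against 131 CPM and Cyp4f14 at 23.6 against 267 CPM. Cyp2e1, which oxidises ethanol, stood at 2402 against 2143 CPM. In the control a Cyp2e1 UMI was found in 88.0% of hepatocytes and 95.7% of lymphocyte barcodes, so by this measure its control level did not stand clear of background.

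Conjugation enzymes had a median of -1.17 over 53 genes, with 17 at least 4-fold lower and 4 at least 4-fold higher. P14 lay below all 4 adult libraries for 56.6% of them, near the 45.5% of all genes. The median fell short of -1 in 4 of 19 alternatives, with -0.89 under TMM scaling and -0.90 without a filter. The lower genes include carboxylesterases, glutathione S-transferases and glucuronosyltransferases. Ces3b stood at 0.108 CPM (7 UMIs) against 457, 58.0, 27.3 and 230 CPM in the adult libraries, and Ces3a at 24.7 against 1254 CPM. Nnmt, which methylates nicotinamide, stood at 5.11 against 281 CPM, Ugt2b1 at 76.98 against 650 CPM, and Mgst1, a microsomal glutathione transferase gene, at 1415 against 5912 CPM. In contrast, Ces1c, a plasma carboxylesterase gene, stood at 2144 against 424 CPM. The antioxidant gene Cat, which encodes catalase, stood at 1189 against 4004 CPM.

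The growth hormone and IGF axis was uneven. Igfbp1, an IGF-binding protein gene that rises in fasting and injury, stood at 2075 CPM in P14 against 23.6, 468, 235 and 42.9 CPM in the adult libraries, 88.0-fold higher than the control (78.8 to 98.6). Igfbp2 stood at 1881 against 236 CPM, 7.98-fold higher (7.70 to 8.27). Prlr, the prolactin receptor gene, which is higher in females, stood at 269 against 49.8 CPM, and Socs2, a feedback target of growth hormone, at 168 against 34.6 CPM. Igf1, the main growth hormone target in liver, was level at 1154 against 1083 CPM, and Ghr, the growth hormone receptor gene, stood at 328 against 596 CPM, within the adult range.

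Hepatocyte transcription factor genes had lower or similar levels, with a median of -0.67 over 40 genes, 0 at least 2-fold higher, 11 at least 2-fold lower and 3 at least 4-fold lower. Hnf4a, the central hepatocyte factor gene, stood at 239 against 389 CPM. Zbtb20, a repressor of Afp, stood at 203 CPM in P14 against 832, 737, 631 and 635 CPM in the adult libraries, and Zhx2, another postnatal repressor of Afp and H19, at 2.60 against 10.44, 7.17, 5.42 and 6.03 CPM. Foxa1 stood at 5.08 against 44.7 CPM and Hhex at 40.2 against 249 CPM. Clock genes had a median of -0.42 over 19 genes, with 6 higher and 13 lower in P14. At least 4-fold lower were 4 of them, against 3.57% of all genes, and 0 were at least 4-fold higher. Dbp stood at 13.1 against 152, 9.07, 3.22 and 119 CPM, within the adult range. The time of day of collection is not given in the labels, and differences between libraries in it cannot be told apart from age.

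Genes of the unfolded protein response had a median of -1.06 over 24 genes, with 13 at least 2-fold and 2 at least 4-fold lower, and 20 below all 4 adult libraries, against 45.5% of all genes. The median fell short of -1 in 5 of 19 alternatives, with -0.80 under TMM scaling. Hyou1 stood at 13.9 against 85.3 CPM, Sdf2l1 at 9.07 against 56.7 CPM and Xbp1, its transcription factor gene, at 127 against 440 CPM. Genes that cells induce during dissociation had a median of -0.70 over 19 genes, with Hspa1b at 1.72 against 52.3 CPM and Hspb1, whose count is uncertain because of a copy, at 0.108 against 19.6 CPM, while Egr1 (128 against 126 CPM) and Jun (60.9 against 42.2 CPM) were near the control. Cytosolic ribosomal protein genes, by contrast, had a median of -0.04 over 76 genes and 0 of them were 2-fold apart.

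Dividing cells were present at P14. Of 25 ranked mitosis genes 24 were at least 4-fold higher than in the adult control, with a median of 2.80 (3.70 with the floor), but 0 of them lay above all 4 adult libraries. Of the 25, 23 lay below 5 CPM in the control and were ranked only through P14. Without the filter the median was 2.74 over 28 genes. Mki67, a marker of cycling cells, stood at 51.1 CPM in P14 against 1.43, 46.7, 120 and 32.1 CPM in the adult libraries, and Top2a, the mitotic topoisomerase gene, at 38.7 against 1.73, 44.9, 80.9 and 15.2 CPM. With each cell thinned to 5000 UMIs, 288 P14 hepatocytes (13.7%) held at least 3 different mitosis genes, against 7 (0.757%) in the control and 18.1%, 44.6% and 13.1% in the operated livers by time. Replication genes had a median of 1.55 over 25 genes, of which 16 lay below 5 CPM in the control, and the median was not past 1 in 3 of 19 alternatives, with Mcm6 at 44.9 against 3.98 CPM. Mcm10 went against the list, at 7.36 CPM in P14 against 133, 19.8, 24.0 and 95.8 CPM, and with only the 2 members of at least 50 CPM the list's median was -1.79. T or NK and B cell barcodes of the P14 library also held mitosis genes, with a Cenpf UMI in 32.6% of them against 7.03% of hepatocytes. Without the hepatocyte barcodes that held at least 3 markers of another cell class, the mitosis median was 2.65 and the replication median 1.57.

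The immature genes were not limited to dividing cells. Between the 288 mitosis-positive P14 hepatocytes and the 1009 without a mitosis gene and with at most 1 replication gene, H19 stood at 10097 and 10354 CPM, Afp at 592 and 647 CPM, Igf2 at 124 and 165 CPM and Cdkn1c at 109 and 106 CPM. Top2a, used to define the cells, stood at 271 and 1.97 CPM. Sult2a1 stood at 622 and 925 CPM and Alb at 90312 and 109937 CPM, so both were somewhat lower in the dividing cells. With non-cycling cells on both sides, the mitosis median was 0.05 over the 2 members that passed the filter. These cells were chosen for lacking mitosis genes, so this fall followed from the choice.

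Levels summed over cells do not show how many cells contribute, so each hepatocyte was thinned to 5000 UMIs and cells with at least 1 UMI were counted. H19 was found in 99.5% of P14 hepatocytes (99.1% to 99.8%) and in 0 of 925 adult control hepatocytes. The latter allows up to 0.398% of cells with a UMI at this depth and sets no limit on cells that express the gene. Its median was 43 UMIs of 5000, from 4 at the 5th percentile to 89 at the 95th. In T, NK and B cell barcodes of the same library, which should lack H19 apart from free RNA, the share was 83.0%, at a median of 9428 UMIs before thinning. The share alone is thus a weak measure for H19. Sult2a1 was found in 87.8% of P14 hepatocytes and 29.6% of the lymphocyte barcodes, Igfbp1 in 99.4% and 29.6%, and Lpl in 95.7% and 15.6%.

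Afp was found in 54.6% of P14 hepatocytes (52.5% to 56.8%) against 10.37% of lymphocyte barcodes, with a median of 1 UMI of 5000 and 11 at the 95th percentile, so its level was concentrated in part of the cells. Igf2 was found in 41.5% against 4.44%, and Cyp2b9 in 52.0% against 1.48%. Without thinning these shares were larger: Afp was found in 86.6% of P14 hepatocytes and Cyp2b9 in 98.0%. In the adult control, Orm1 was found in 98.2% of hepatocytes and 52.0% of lymphocyte barcodes, and Serpina3k in 100% and 99.5%, which shows how far free RNA of these genes had spread in that library. In P14 hepatocytes, Orm1 was found in 0.9497%, near the 0.741% of lymphocyte barcodes, and Hamp in 0.0475%, below its 0.741% there, so neither stood clear of background and no fold is given for them. Scd1 was found in 7.12%, against 2.96%. Serpina3k was found in 17.1% of P14 hepatocytes against 1.48% of lymphocyte barcodes, so it was above background in a part of the cells. The P14 lymphocyte shares come from 135 barcodes, so shares as low as 0.741% or 1.48% rest on very few of them.

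**Figure D4:**
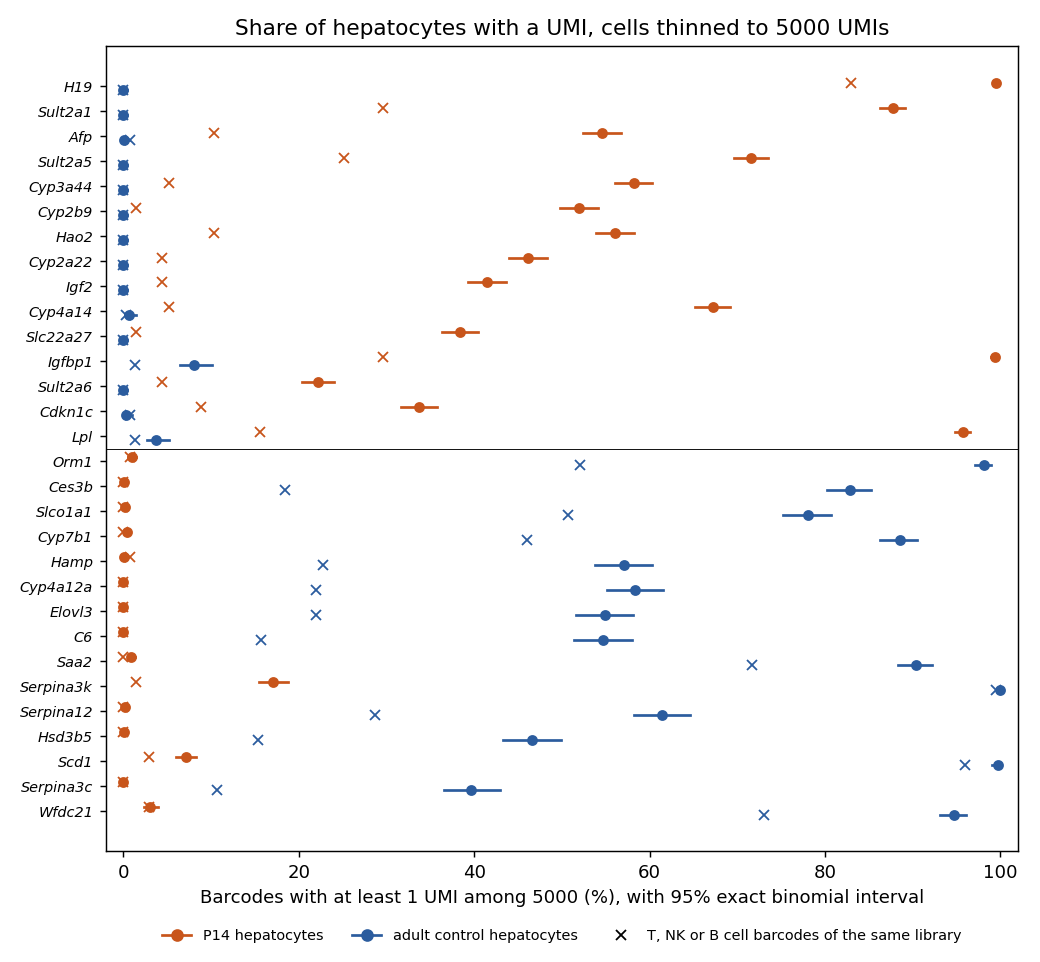
Share of barcodes with at least 1 UMI among 5000, for the 15 genes with the largest ratio (top) and the 15 with the smallest (bottom); dots are hepatocytes with exact 95% binomial intervals, and crosses are T, NK or B cell barcodes of the same library. For the P14-high genes the adult control dots lie between 0 and the 8.11% of Igfbp1, and for Serpina3k and Scd1 in the adult control the crosses lie almost as far right as the hepatocytes.

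The lobule of the liver is divided into a pericentral zone around the central vein and a periportal zone at the inflow, with different enzymes in each. Both zonal programmes were present at P14 with a narrower contrast for some pericentral genes. Among cells thinned to 5000 UMIs, the summed pericentral and periportal lists were inversely related across cells in both libraries (Spearman rho -0.63 over 2106 P14 cells and -0.71 over 925 control cells, a description over cells that share a library and a depth). For the single pair Cyp2e1 and Cyp2f2 rho was -0.22 at P14 and -0.66 in the control, with Cyp2f2 60.1-fold lower at P14 (57.4 to 62.9). Other periportal genes did not share this drop throughout. With Cyp2e1, rho was -0.40 at P14 and -0.55 in the control for Hal, -0.38 and -0.31 for Ass1, and -0.41 and -0.26 for Pck1. Glul, the glutamine synthetase gene of the cells next to the central vein, was found in 22.9% of P14 and 24.5% of control hepatocytes, against 9.63% and 21.8% of lymphocyte barcodes, so in the control a Glul UMI marks cells poorly.

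Cells with a Glul UMI were set against the others within each library. Slc1a2, a glutamate transporter gene of the same innermost layer, was 71.3-fold higher in Glul-positive cells at P14 (26.9 to 268) and 13.3-fold in the control (9.31 to 19.5). Oat was 4.70-fold higher at P14 and 3.49-fold in the control. The P14 ratio of Slc1a2 rests on 4 UMIs in the other cells. In the control a Slc1a2 UMI was found in 7.89% of hepatocytes and 11.1% of lymphocyte barcodes. For Oat these shares were 44.3% and 45.0% in the control, and 12.8% and 14.1% at P14. Free RNA can lower such ratios, so the sizes of these ratios cannot be compared between the libraries. Of the 20 pericentral genes with a value in both libraries, 13 were nearer to 1 at P14 and 7 farther from it. Among the former, Cyp2c29 was 1.03-fold (0.954 to 1.12) against 2.40-fold in the control, and Cyp2c37 1.37-fold against 3.87-fold. All 25 pericentral genes with a value at P14 and all 20 in the control had a ratio above 1, with medians of 1.38 and 1.83, and 22 of 24 periportal genes were below 1 in both, with medians of 0.825 and 0.812.

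**Figure D5:**
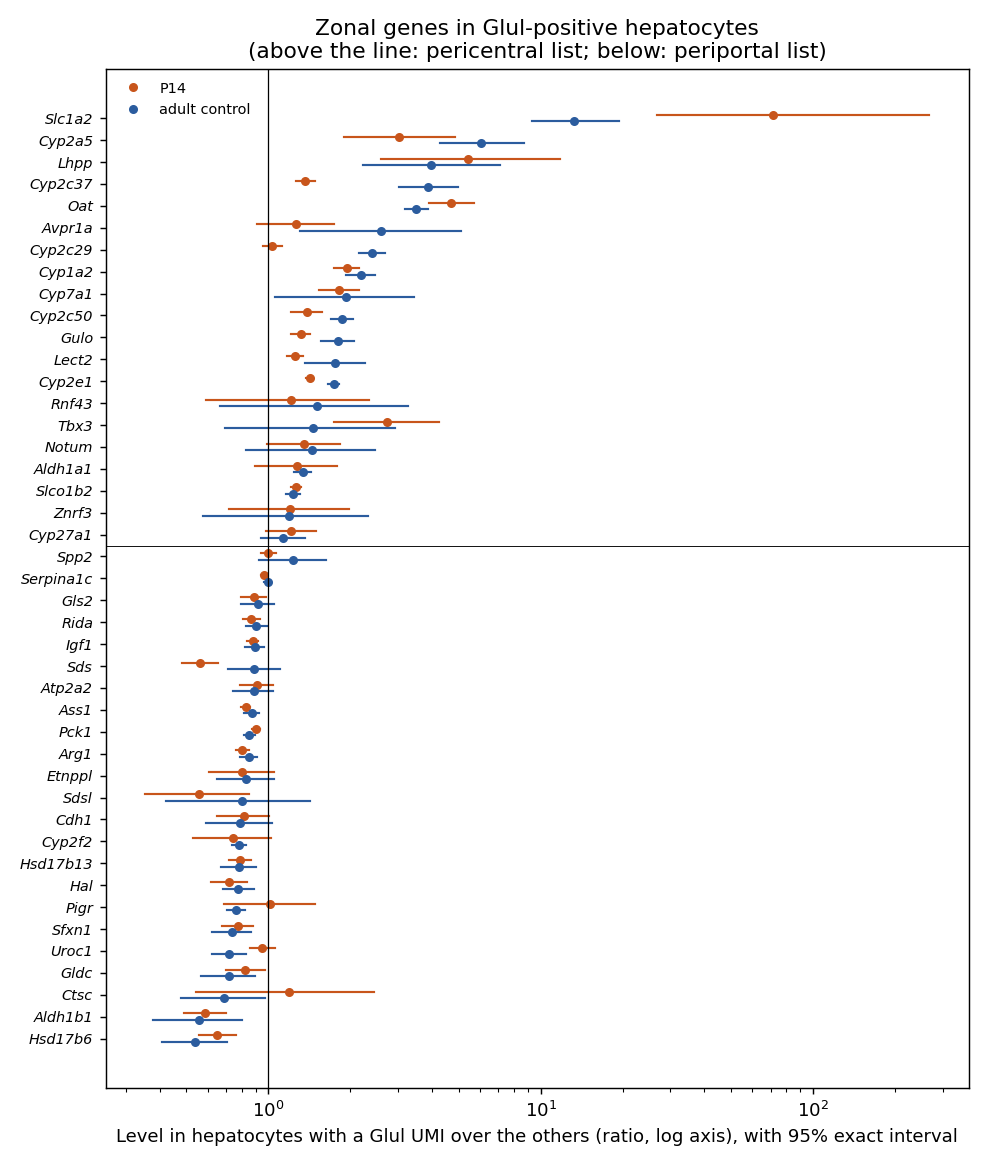
Ratio of the level in hepatocytes with a Glul UMI to the level in the others (log axis) for pericentral genes (above the line) and periportal genes (below it), with exact 95% intervals, in P14 (orange) and the adult control (blue). Slc1a2 has the largest ratio in both libraries, at 71.3 and 13.3, and Cyp2c29 and Cyp2c37 lie nearer to 1 at P14 than in the control.

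Some of the genes that set P14 apart were also unevenly spread within the P14 library. When its hepatocytes were ordered by the pericentral share of their zonal-list UMIs and split evenly, the 702 most pericentral cells held 2.46 times the Afp level of the 702 most periportal cells (2.30 to 2.64), at 1066 against 433 CPM, with 409 CPM in the cells between them. H19 ran the other way, at 7972 against 13730 CPM, a ratio of 0.581 (0.571 to 0.590), as did Igf2 with 0.674 (0.589 to 0.769) and Serpina3k with 0.362 (0.286 to 0.456). Cyp2a22 had a ratio of 2.36, Lpl of 1.61, Sult2a1 of 1.56 and Igfbp1 of 1.36, while the intervals of Cyp2b9, at 0.925 (0.819 to 1.05), Hao2, at 1.09 (0.977 to 1.23), and Slc22a27, at 1.15 (0.986 to 1.34), included 1. Alb had a ratio of 1.03 across P14 cells and of 0.494 (0.486 to 0.502) across the adult control. Alb was part of the rule that chose the cells. The lowest share of the rule's genes was 5.17% in P14 cells and 1.05% in control cells, near the 1% limit. The rule thus bore on the 2 libraries unequally, and the Alb ratios are given as a description. Among genes low at P14, the adult control had higher pericentral levels of Elovl3, at a ratio of 2.18, and of Slco1a1, at 1.86, and higher periportal levels of Serpina12, at 0.391, and Orm1, at 0.604. The medians of the zonal lists lay near the -0.26 of all genes, at -0.26 over 24 pericentral and -0.44 over 25 periportal genes. Single members differed more. Of the pericentral genes 2 were at least 4-fold higher and 5 at least 4-fold lower in P14, and of the periportal genes 1 and 4. Over all genes these shares were 2.93% and 3.57%. When hepatocytes needed at least 3% of UMIs from Alb, Apoa1 and Ttr, which left all 2106 P14 cells but 410 of the control, the pericentral median turned to 1.36.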

How the data were processed

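Liver cells were measured by droplet RNA sequencing in 5 libraries, 1 per group. The authors deposited whole-number UMI counts per gene and barcode for each library, without normalization or cell filtering, and software version 3.0.2 is named in them, per the file headers. The submitters' processing notes name bcl2fastq 2.17.1.14, Cell Ranger, Seurat 3.1 and the build mm10; the annotation is not given in the sources used here. Gene positions came from GENCODE M21 on GRCm38.

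Hepatocytes were taken by the rule in the report, counts were summed per library, and CPM used the total without mitochondrial genes. Ratios used a pseudocount of 1 CPM, which understates low genes, and a filter of 5 CPM in either library; a 4-fold difference was called, and a list only where its median passed 1 or -1. Genes at 0 were set to a floor of 3 counts for fold bounds. Genes named were the 15 with the largest and the 15 with the smallest ratio, the 10 with the largest gain and the 10 with the largest loss in CPM, list members at least 4-fold apart or the 3 farthest from 0, and contrasts. Counts of genes sharing over 20% of the 91-base words of their last 500 transcript bases with another gene (22 of 217 checked) were marked uncertain. No doublets were removed in the values reported. Lymphocyte barcodes carried at least 3 T, NK or B cell markers, at least 1000 UMIs and under 1% Alb, Apoa1 and Ttr. Shares in them used only the barcodes of at least 5000 UMIs, 135 in P14 and 611 in the adult control. Droplets past barcode rank 20000, up to 60000, gave free RNA. Promoter sequences came from RefSeq (GRCm38.p6) and were searched on both strands. Some list members are not reported here. The members and lists were chosen with earlier results of these data known. The calculation was tested on simulated data. Alternatives, with edgeR 4.0.16 and DESeq2 1.42.0 for scaling only and scanpy 1.11.5 for doublet scores, are in the closing section. Python 3.11.15 and R 4.3.3 were used.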

Additional observations from a re-analysis of the deposited data

How the results depend on the processing

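No paired analysis was possible because each group had 1 library. The values were recomputed under 19 alternatives, 1 of them chosen after seeing the data, which left out the genes of both sex-biased lists. The 47 genes named for the size of their ratio or gain kept their sign in each alternative that could change their value. With cells of 10% to 20% mitochondrial UMIs (87 in the control) the log2 ratio of Afp was 9.58 in place of 8.71, that of Cdkn1c 6.82 in place of 6.15 and that of Cyp4a14 5.79 in place of 6.98. The control levels of Afp and Cdkn1c did not stand clear of background, so the sizes of these 2 ratios carry little meaning. Of the 10 lists with a median past 1 or -1, 9 kept their sign in every alternative run for them, 18 for each sex-biased list and 19 for the others; replication turned to -1.79 among genes of at least 50 CPM, where 2 members were left. The median did not stay past 1 or -1 in 5 alternatives for the unfolded protein response, 4 for conjugation enzymes, 3 each for serum transport and replication, and 1 each for fatty acid synthesis and mitosis. For mitosis that alternative kept non-cycling cells only, which were chosen for lacking mitosis genes. A pseudocount of 10 CPM gave 78 genes at least 4-fold higher and 127 lower, with 73 above and 119 below all 4 adult libraries. Genes of at least 50 CPM gave 75 and 149, with 70 and 141. The median log2 ratio over all genes of at least 5 CPM was 0.0215 with TMM, 0.0131 with DESeq2 size factors and -0.40 with Mup genes out of the total. Without a filter on level the median was -0.0505 over 16505 genes. The other counts stayed within 1.5 times. Of the 568 genes called 4-fold apart, 502 kept the call under TMM, 559 with free RNA taken off, 484 among non-cycling cells and 544 without barcodes that held 3 markers of another cell class (56 in P14, 283 in the control). The adult control, with 925 cells and 13316829 UMIs, limits the precision of low genes.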

Other observations

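Further genes stood apart. Slc22a27, an organic anion transporter gene, stood at 115 CPM in P14 against 0 in the adult control and 1.19 CPM at 96 h. Slc39a5, a zinc importer gene, stood at 15.2 CPM against 0.150, 0.0512, 0.144 and 0.744 CPM in the 4 adult libraries. Metallothionein genes did not share this pattern: Mt1 stood at 261 against 119 CPM and Mt2 at 15.2 against 39.95 CPM, while after hepatectomy Mt1 reached 8399 CPM at 24 h. Car3, a carbonic anhydrase gene, stood at 270 CPM in P14 and 2589 CPM in the adult control, and at 194 and 282 CPM at 24 h and 48 h it was as low as in P14. Wfdc21 stood at 9.31 against 1204 CPM, and at 3068 CPM at 24 h. In the cytoskeleton list, Stmn1, which also marks dividing cells, stood at 92.0 against 13.4 CPM and Marcks at 17.1 against 1.28 CPM. Both were more frequent in T, NK or B cell barcodes of the P14 library than in its hepatocytes, at 53.3% against 19.5% of barcodes with a UMI for Stmn1 and 31.9% against 5.70% for Marcks.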
